A study of Homo sapiens with 8 samples.

Results

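The PI3K, AKT and mTOR pathway genes described here are 48 genes chosen by name from those for which the counts held a row, out of 30434 genes in all. They cover the catalytic and regulatory subunits of phosphoinositide 3-kinase (PI3K), the phosphatases that remove its lipid product, AKT and its partners, the TSC and mTOR complexes, the ribosomal S6 kinases and the factors of cap-dependent translation. The assay was RNA-seq of SKBR3 cells, a breast carcinoma line with amplified ERBB2 (HER2). The control group was 4 libraries of SKBR3 cells labelled WT, and the knockdown group was 4 libraries of a stable SKBR3 derivative carrying lentiviral short hairpin RNAs against FOXA1, a pioneer transcription factor of luminal cells. Both were grown in DMEM with fetal bovine serum, and the design text asks what FOXA1 does to pathways around HER2. The labels do not say whether the controls received a control vector or whether replicates were separate cultures, so p-values measure the spread between these libraries, which may be technical.

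Receptor tyrosine kinases, with ERBB2 and ERBB3 among the strongest, recruit class IA PI3K, whose lipid product brings AKT to the membrane to be activated by PDK1 and mTOR complex 2. AKT relieves the block that the TSC complex places on RHEB, and RHEB activates mTOR complex 1, which drives the S6 kinases and releases the cap-binding protein eIF4E from its inhibitors. Activity in this pathway runs largely through phosphorylation, which RNA counts do not measure.

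Library totals ran from 19087878 to 23786684 counts. FOXA1 fell from 191.7 ± 1.65 to 3.96 ± 0.340 counts per 1000000 (CPM, scaled by TMM factors; mean ± SD, n = 4 each). Its log2 ratio, which here and below is the log2 fold change fitted for knockdown over control, was -5.60 (adjusted p = 3.19e-30, edgeR). ERBB2, the receptor that feeds the pathway in these cells, retained 18.3% of its control level. All 9 luminal markers examined were tested, and their summed level ran from 18467 to 20548 CPM in control and from 11690 to 12582 CPM in knockdown. The lower sum came from ERBB2, KRT19 (2645 and 723.0 CPM) and KRT7 (2202 and 637.0 CPM), while KRT8, KRT18, EPCAM, GRHL2 and TFAP2A had higher means in knockdown. Leukocyte markers (5 of 6 in the table) summed to 5.68 to 7.41 CPM in control and 1.48 to 2.59 CPM in knockdown, fibroblast markers (6 of 7) to 5.27 to 6.98 and 10.8 to 12.0 CPM, and endothelial markers (5 of 5) to 20.8 to 22.2 and 19.9 to 22.4 CPM. Members of these lists did not move together: CD68 went from 4.94 to 0.589 CPM and CD14 from 0.181 to 0.533, COL3A1 from 0.0222 to 4.32 and COL1A1 from 5.38 to 4.33, and VWF from 5.22 to 0.845 and CDH5 from 16.1 to 20.1. PTPRC, DCN and PDGFRA had at most 3 counts in any library and PECAM1 at most 6. PDGFRB, also a fibroblast marker, went from 0.410 CPM in control to 2.83 CPM in knockdown. One library, control replicate 3, lay away from its group on the second principal component (-40.1 against 9.53 to 16.3). In these bulk samples, fewer cells of a kind and less RNA per cell cannot be told apart.

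All 48 genes passed the filter on low counts, with means from 51.88 to 8796 counts per library. Of these, 42 (87.5%) were called at an adjusted p under 0.05 by edgeR's quasi-likelihood test, 18 higher and 24 lower in knockdown. Over all 16430 genes tested that rule called 77.1%, with 39.4% higher and 37.7% lower, and it called 82.6% of genes averaging 50 counts or more, so a call by itself says little here. Among the 48 genes 11 were called with a fold change of 2 or more (22.9%), 5 higher and 6 lower, against 28.3% of all genes tested and 23.5% of those averaging 50 counts or more. For each of the 11 a two-sided exact permutation test over the libraries gave p = 0.0286, the smallest it can give. Any gene whose groups do not overlap must give this value, which held for 72.0% of all genes, so it adds no evidence. The same 11 genes passed a test against a 2-fold change (edgeR's glmTreat), which called 23.5% of all genes. For 36 of the 48 no CPM value of one group fell within the other's range, against 72.0% of all genes. The median log2 ratio was -0.12, beside 0.02 over all genes, and the median size regardless of sign was 0.32, beside 0.51. Those medians over all genes include genes averaging under 50 counts, which the 48 do not. They were not taken for better-counted genes alone. Shares of calls and of 2-fold changes therefore lay near the background, and the genes differed from each other far more than the set moved as a whole.

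Genes that lie near each other could share a shift in this comparison. Each gene is therefore given a neighbourhood value, the median log2 ratio among the 50 nearest protein-coding genes tested; it ran from -0.63 around IRS2 to 0.48 around EIF4EBP2. With that value taken out, 12 genes were called higher and 27 lower. The value entered the fit as fixed, so adjusted p-values with it taken out, here and below, leave out its own error. Small shifts and reversals are therefore uncertain. Of the 42 calls, 32 kept their direction, 7 were no longer past the threshold and 3 (AKT2, AKT1S1 and EIF4EBP2) were called in the opposite direction. A further 4 that had not been called were then lower: PIK3CB (-0.16), GSK3B (-0.23), SESN1 (-0.19) and RRAGD (-0.46). The 3 that turned had log2 ratios under 0.25. The 11 genes with 2-fold changes kept their direction and stayed past the threshold. Whether neighbouring genes shared a shift, and why, was not tested.

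**Figure D1:**
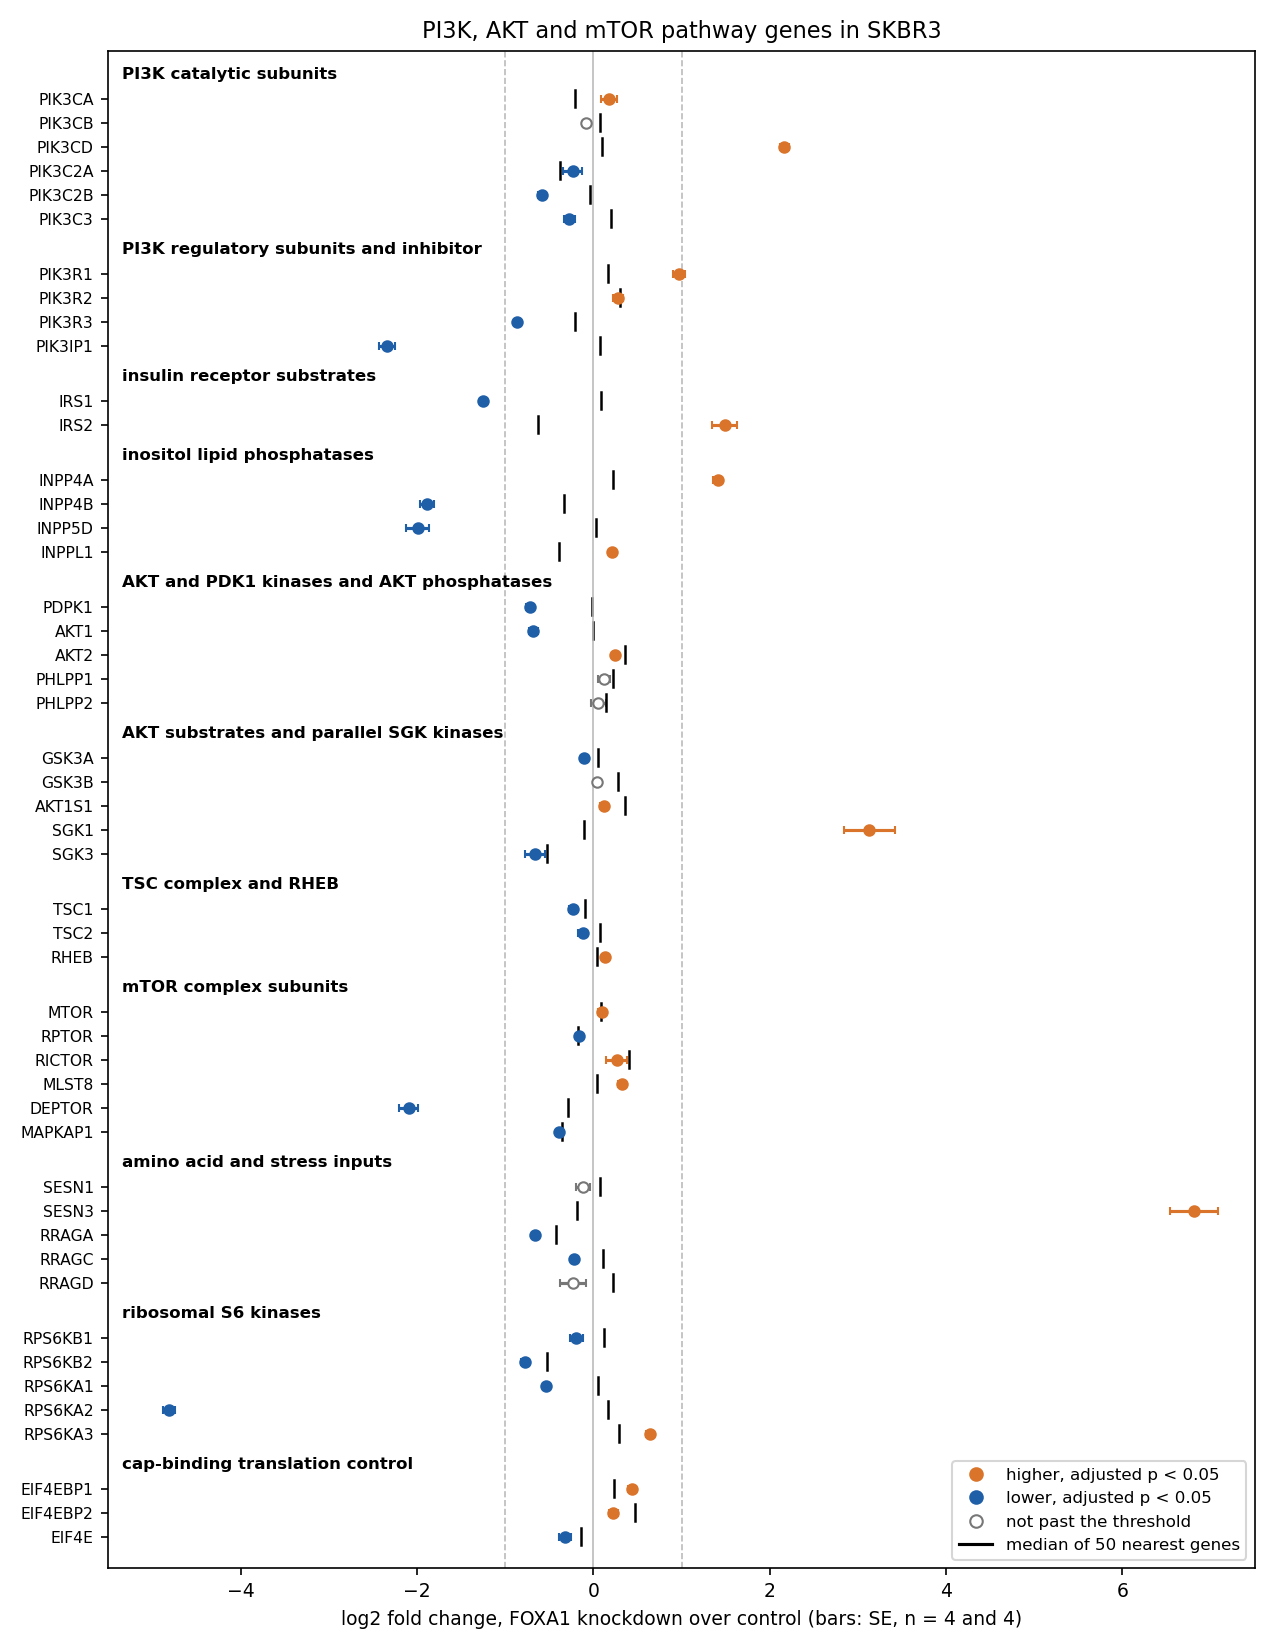
Log2 ratio of each of the 48 genes (x axis, knockdown over control, bars SE, n = 4 and 4), grouped by role. Orange points were called higher, blue lower and open points were not past the threshold; dashed lines mark 2-fold and black ticks the median of the 50 nearest genes. RPS6KA2 lies at -4.81 and SESN3 at 6.81, and 37 genes lie between the dashed lines.

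RefSeq promoter windows (GRCh38.p14, 250 bases before to 50 after the annotated start) matched 41 of the 48 genes and were searched on both strands for the forkhead core, which FOXA1 and the FOXO factors share, in 4 spellings that cannot overlap at one place. These were TGTTTAC (set at the start) and, added later, TGTTTGC as well as the spelling TATTTAC and the spelling TATTTGC. A match was found in 3 of the 41 windows (7.32%), against 12.1% of 35116 windows in the table. The 250 upstream bases are printed for those 3 genes, with the match in capitals, and for the genes with the largest fall and rise, RPS6KA2 and SESN3, which had none. All are 5′ to 3′ on the gene's strand. The windows of RPS6KA2 and INPP4B lie inside the longer genes of GENCODE 29. So does nearly all of the PIK3CA window, match included (gene start 179148114), and part of the SESN3 window (gene end 95232541). Another start may therefore be used in these cells.
RPS6KA2 (chr6:166862526-166862775, minus strand): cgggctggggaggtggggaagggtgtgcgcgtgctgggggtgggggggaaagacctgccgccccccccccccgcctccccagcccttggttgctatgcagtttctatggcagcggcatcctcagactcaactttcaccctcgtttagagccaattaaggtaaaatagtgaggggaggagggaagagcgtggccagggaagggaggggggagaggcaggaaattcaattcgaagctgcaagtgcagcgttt
SESN3 (chr11:95232476-95232725, minus strand): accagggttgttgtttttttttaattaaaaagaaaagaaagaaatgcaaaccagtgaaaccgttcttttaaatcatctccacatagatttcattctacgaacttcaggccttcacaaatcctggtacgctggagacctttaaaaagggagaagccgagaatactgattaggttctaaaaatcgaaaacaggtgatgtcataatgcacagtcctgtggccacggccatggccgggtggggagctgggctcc
INPP4B (chr4:142405860-142406109, minus strand): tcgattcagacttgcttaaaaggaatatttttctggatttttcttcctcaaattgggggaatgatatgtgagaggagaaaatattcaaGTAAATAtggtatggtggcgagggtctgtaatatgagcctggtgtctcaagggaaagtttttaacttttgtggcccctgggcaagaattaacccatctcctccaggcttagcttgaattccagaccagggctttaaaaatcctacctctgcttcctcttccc
PIK3CA (chr3:179148107-179148356, plus strand): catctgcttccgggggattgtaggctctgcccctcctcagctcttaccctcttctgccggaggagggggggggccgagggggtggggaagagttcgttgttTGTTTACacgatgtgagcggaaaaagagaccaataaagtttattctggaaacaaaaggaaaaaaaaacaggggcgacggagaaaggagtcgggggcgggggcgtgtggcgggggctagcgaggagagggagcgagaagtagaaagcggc
GSK3B (chr3:120094448-120094697, minus strand): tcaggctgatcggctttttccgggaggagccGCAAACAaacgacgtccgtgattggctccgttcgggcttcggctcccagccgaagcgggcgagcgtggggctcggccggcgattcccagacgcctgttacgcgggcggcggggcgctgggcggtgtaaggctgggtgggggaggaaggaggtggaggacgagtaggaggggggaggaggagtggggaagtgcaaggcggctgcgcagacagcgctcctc
The match began 162 bases before the RefSeq start in INPP4B, 149 in PIK3CA and 219 in GSK3B. These 3 genes had log2 ratios of -1.88, 0.18 and 0.05, so the genes with a match ranged from a fall of over 2-fold to a difference that was not past the threshold. The members' windows were richer in G and C than the rest (median 64.3% against 58.7%) and held more CG dinucleotides (median 27 against 14). No match says only that these letters are not in this window.

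The catalytic subunits of class IA PI3K changed their order. PIK3CD (ENSG00000171608.16, chromosome 1, 9651732 to 9729114, plus strand, GENCODE 29 on GRCh38) encodes p110 delta, the catalytic subunit best known from leukocytes. Its level was 13.1, 11.8, 11.6 and 12.2 CPM in control replicates 1 to 4 and 52.7, 55.8, 52.6 and 57.4 CPM in knockdown replicates 1 to 4. Every knockdown library was at least 4 times every control library, a 4.48-fold rise (log2 ratio 2.16, SE 0.0494, adjusted p = 1.19e-21 in edgeR). The neighbourhood value was 0.10, and PTPRC, the defining leukocyte marker, was at or near 0 in both groups. PIK3CD overlaps 89 exonic bases of CLSTN1 on the opposite strand, and whether counting used strand is not stated.

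PIK3CA, which encodes p110 alpha, had 38.5 ± 4.42 CPM in control and 43.6 ± 1.99 CPM in knockdown (each ± SD, n = 4; log2 ratio 0.18, adjusted p = 0.025 in edgeR). The groups overlapped, and the call was lost without control replicate 3, where the log2 ratio was 0.10 (adjusted p = 0.0615), without knockdown replicate 1 (0.0563) and without knockdown replicate 2 (0.0846). PIK3CA shares 3403 exonic bases with KCNMB3 on the opposite strand, which averaged 56.62 counts. PIK3CB, which encodes p110 beta, had 45.2 ± 1.71 and 42.8 ± 1.06 CPM and was not past the threshold (adjusted p = 0.115 in edgeR); its sign flipped with scaling by library size only, and it was called lower (-0.16, adjusted p = 0.00351) with its neighbourhood value of 0.08 taken out. Levels of the 3 genes were compared per kilobase of merged exon (GENCODE basic transcripts). In control, PIK3CB stood at 7.55 ± 0.285 CPM per kb, PIK3CA at 4.19 ± 0.482 and PIK3CD at 2.15 ± 0.116. In knockdown, PIK3CD was the most abundant at 9.63 ± 0.417, ahead of PIK3CB at 7.14 ± 0.176 and PIK3CA at 4.75 ± 0.216 (SD, n = 4). PIK3CD thus went from 15.5% ± 0.489 to 44.7% ± 1.48 of the summed level of the 3, and the order was the same with all GENCODE exons.

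Class II and III kinases make other 3-phosphoinositides, for membrane traffic and autophagy. PIK3C2B fell from 139.2 ± 4.50 to 92.7 ± 4.34 CPM (each ± SD, n = 4; log2 ratio -0.59, adjusted p = 9.44e-13 in edgeR) with no overlap. PIK3C3, the class III kinase VPS34, fell by 0.27 on the log2 scale (adjusted p = 0.0022), also with no overlap. PIK3C2A had a log2 ratio of -0.23 that barely passed (adjusted p = 0.0455) and did not pass in 12 of 19 alternatives, among them the removal of any control library other than replicate 3 (0.0709 without replicate 1, 0.0787 without 2, 0.0933 without 4) and of knockdown replicate 1 (0.0755), 3 (0.0938) or 4 (0.0778). Its neighbourhood value was -0.37, and with that taken out the sign turned (0.14). PIK3C2A also shares 58 exonic bases with RPS13 on the same strand, which averaged 14362 counts. How reads in those bases were assigned is not stated.

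Regulatory subunits hold the catalytic subunits inactive until a receptor is engaged. PIK3R3 (p55 gamma) had 174.9, 176.9, 171.5 and 176.6 CPM in control and 92.0, 97.7, 97.7 and 97.5 CPM in knockdown. No knockdown library reached 100 CPM, and the fall was 0.86 on the log2 scale (SE 0.0238, adjusted p = 2.67e-17 in edgeR). PIK3R1, which encodes p85 alpha and its shorter forms, rose from 11.8 ± 1.11 to 23.1 ± 0.672 CPM (each ± SD, n = 4; log2 ratio 0.97, adjusted p = 1.61e-12). PIK3R2 (p85 beta) rose from 81.1 ± 4.85 to 98.4 ± 5.15 CPM (log2 ratio 0.28, adjusted p = 5.5e-06), close to its neighbourhood value of 0.31, and with that taken out it was no longer past the threshold and its sign turned (-0.03). PIK3R2 shares 87.2% of its exonic bases with an unnamed gene on the same strand that averaged 58.0 counts, so its assignment is uncertain. Per kilobase, PIK3R3 led in control (29.4 ± 0.417 CPM per kb against 19.95 ± 1.19 for PIK3R2 and 1.52 ± 0.143 for PIK3R1), and PIK3R2 led in knockdown (24.2 ± 1.27 against 16.2 ± 0.475 and 2.98 ± 0.0866).

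PIK3IP1 (ENSG00000100100.13, chromosome 22, 31281593 to 31292534, minus strand) encodes a membrane protein that binds the catalytic subunit and inhibits it. Its control values were 24.3, 27.3, 27.8 and 25.1 CPM and its knockdown values 6.04, 5.00, 4.63 and 4.86 CPM. The highest knockdown library lay at under 25% of the lowest control library. The knockdown group kept 19.6% of the control level (log2 ratio -2.34, SE 0.0953, adjusted p = 6.61e-19 in edgeR), with a neighbourhood value of 0.08.

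The insulin receptor substrates, docking proteins that carry PI3K to the insulin and IGF1 receptors, moved in opposite directions. IRS1 (ENSG00000169047.5, chromosome 2, 226731317 to 226799759, minus strand) had 14.7, 13.4, 14.5 and 14.7 CPM in control and 5.78, 5.94, 6.16 and 6.29 CPM in knockdown. All knockdown values lay at under 50% of the lowest control value (log2 ratio -1.25, SE 0.0418, adjusted p = 1.48e-13 in edgeR). IRS2 (ENSG00000185950.9, chromosome 13, 109752698 to 109786568, minus strand) had 1.28, 1.498, 1.09 and 1.03 CPM in control and 2.93, 3.44, 3.72 and 3.75 CPM in knockdown. It was low in every library, with 23 to 33 counts in control and 69 to 84 in knockdown, and rose without overlap (log2 ratio 1.49, SE 0.144, adjusted p = 1.32e-08). The rise went against its neighbourhood value of -0.63. Per kilobase, IRS1 remained above IRS2 in both groups, at 1.48 ± 0.0635 against 0.151 ± 0.0258 CPM per kb in control and 0.623 ± 0.0235 against 0.425 ± 0.0464 in knockdown.

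**Figure D2:**
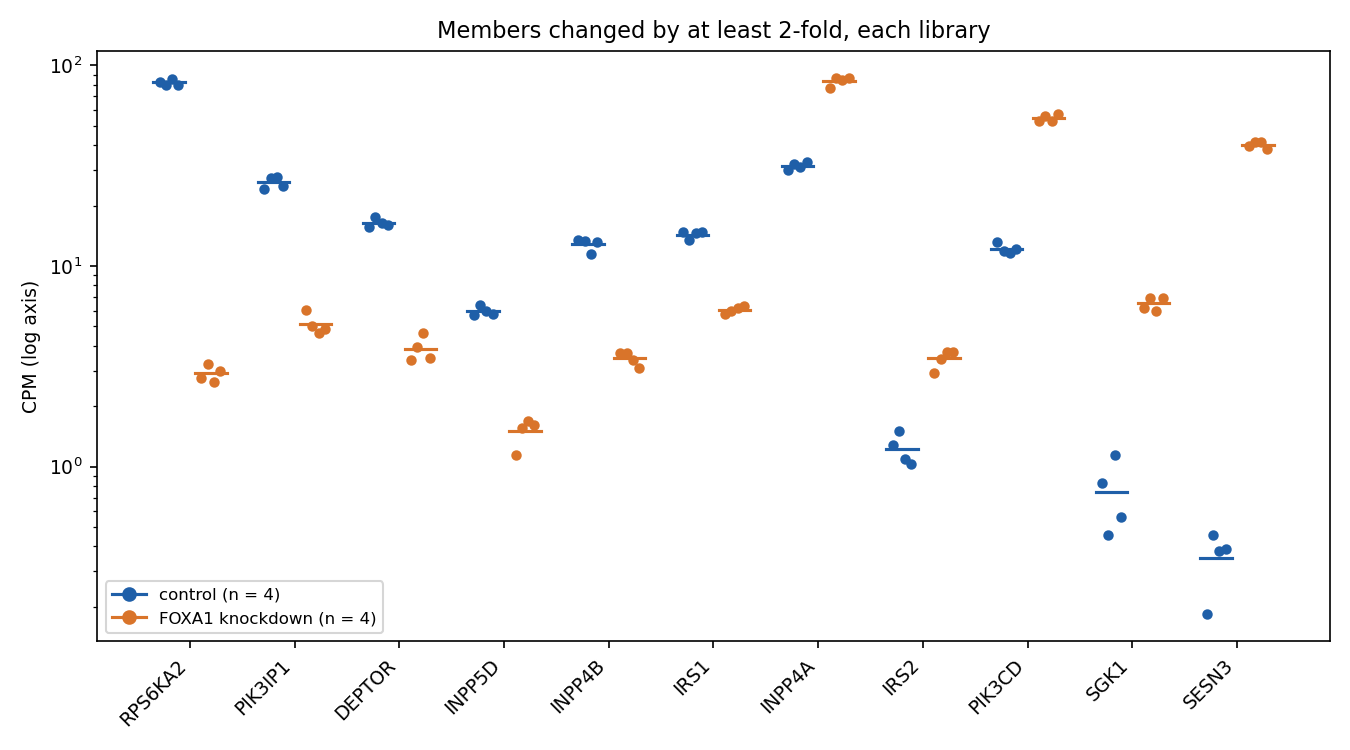
CPM (log axis) in each control library (blue) and knockdown library (orange) for the 11 genes changed by at least 2-fold, from the largest fall to the largest rise; lines are group means, n = 4. For none of the 11 do the groups overlap, and SESN3 and SGK1 lie below 1.2 CPM in every control library.

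Among the phosphatases that act on PI3K lipids, 2 were called higher and 2 lower, by a rule that called 77.1% of all genes tested. INPP4A and INPP4B remove the 4-phosphate from the lipid that 5-phosphatases leave behind, and INPP4B is known as a tumour suppressor in breast cancer. INPP4B (ENSG00000109452.12, chromosome 4, 142023160 to 142847432, minus strand) had 13.6, 13.4, 11.4 and 13.1 CPM in control and 3.70, 3.69, 3.41 and 3.10 CPM in knockdown. Every knockdown library was below every control library by more than 3-fold (log2 ratio -1.88, SE 0.0817, adjusted p = 2.04e-15 in edgeR; neighbourhood value -0.33). INPP4A (ENSG00000040933.16, chromosome 2, 98444854 to 98594390, plus strand) had 30.1, 32.1, 31.1 and 33.1 CPM in control and 77.6, 86.7, 85.0 and 86.9 CPM in knockdown. The groups were well separated, and the rise was 2.66-fold (log2 ratio 1.41, SE 0.0487, adjusted p = 5.77e-19; neighbourhood value 0.22). Per kilobase INPP4A exceeded INPP4B in both groups, at 3.05 ± 0.1248 against 1.09 ± 0.0819 CPM per kb in control and 8.11 ± 0.425 against 0.293 ± 0.0238 in knockdown.

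SHIP1 and SHIP2 are 5-phosphatases that act directly on the product of class IA PI3K. INPP5D (SHIP1, best known from blood cells; ENSG00000168918.14, chromosome 2, 233059967 to 233207903, plus strand) had 5.72, 6.36, 5.98 and 5.77 CPM in control and 1.15, 1.56, 1.68 and 1.62 CPM in knockdown. Its groups did not overlap (log2 ratio -1.99, SE 0.129, adjusted p = 8.45e-13 in edgeR). The summed level of the leukocyte markers was also lower in knockdown, almost wholly through CD68 (4.94 and 0.589 CPM), while LYZ stood at 0.775 and 0.758 CPM and PTPRC had at most 3 counts in any library; the part of such cells in this result was not tested beyond that. INPPL1 (SHIP2) rose from 137.5 ± 3.29 to 158.9 ± 4.58 CPM (each ± SD, n = 4; log2 ratio 0.21, adjusted p = 8.66e-06), against a neighbourhood value of -0.39.

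The 2 AKT genes among the 48 also diverged, by less than 2-fold. AKT1 had 200.9, 203.6, 219.1 and 201.2 CPM in control and 126.9, 133.9, 118.7 and 134.7 CPM in knockdown. No library of one group came near the other (log2 ratio -0.68, SE 0.0519, adjusted p = 1.17e-13 in edgeR; neighbourhood value 0.00). AKT2 rose from 136.0 ± 2.02 to 161.0 ± 5.77 CPM (each ± SD, n = 4; log2 ratio 0.24, adjusted p = 1.03e-06), but the 50 genes around it on chromosome 19 had a higher median of 0.36, and with that taken out AKT2 was lower (-0.12, adjusted p = 0.00406). Per kilobase AKT1 stood at 44.9 ± 1.897 and AKT2 at 23.3 ± 0.346 CPM per kb in control, and at 28.0 ± 1.63 and 27.5 ± 0.986 in knockdown, where they differed by less than the spread between libraries. With all GENCODE exons as the length the gap in knockdown was larger than either SD, at 11.5 ± 0.668 for AKT1 and 10.7 ± 0.384 for AKT2. PDPK1, the gene of PDK1, which activates AKT, fell from 151.4 ± 6.04 to 91.9 ± 3.20 CPM (log2 ratio -0.72, adjusted p = 8.89e-15). PHLPP1 and PHLPP2, phosphatases that inactivate AKT, were not past the threshold (log2 ratios 0.12 and 0.06, adjusted p = 0.0581 and 0.437). PHLPP1 passed in 6 of 19 alternatives: without control replicate 3 (0.0152) or knockdown replicate 3 (0.0119), under upper-quartile scaling (0.00727) or library size only (0.00299), and with no filter (0.0447) or a minimum mean of 50 counts (0.0337). Its sign and that of PHLPP2 turned with the neighbourhood value taken out.

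Of the AKT substrates, GSK3A and GSK3B, kinases that AKT inhibits, had log2 ratios of -0.10 and 0.05. GSK3B had 100.5 ± 2.59 and 103.7 ± 2.99 CPM (adjusted p = 0.267 in edgeR), and was called higher under upper-quartile scaling (0.0147) or library size only (0.00303) and lower with its neighbourhood value of 0.28 taken out (5.34e-06). GSK3A had 88.0 ± 2.01 and 82.0 ± 4.20 CPM (each ± SD, n = 4; log2 ratio -0.10, adjusted p = 0.0311), a call lost in 9 of 19 alternatives. These included leaving out control replicate 1 (0.0535) or 2 (0.0546) and knockdown replicate 2 (0.0605) or 3 (0.159). AKT1S1, the mTOR complex 1 inhibitor PRAS40, had a log2 ratio of 0.12 (adjusted p = 0.00863; 0.0606 without control replicate 4), below its neighbourhood value of 0.36, and was lower with that taken out (-0.24).

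SGK kinases resemble AKT and share some of its substrates. SGK1 (ENSG00000118515.11, chromosome 6, 134169246 to 134318112, minus strand), whose transcription responds to hormones and stress, had 0.824, 0.454, 1.14 and 0.560 CPM in control, or 10 to 24 counts, and 6.21, 6.96, 5.96 and 6.89 CPM in knockdown, or 117 to 170 counts. The lowest knockdown library was over 5 times the highest control library. The rise was 8.74-fold (log2 ratio 3.13, SE 0.292, adjusted p = 2.2e-14 in edgeR; neighbourhood value -0.10), and leaving out single libraries kept it between 2.96 and 3.40 on the log2 scale. SGK3 had a log2 ratio of -0.66 (adjusted p = 2.85e-06) in a neighbourhood at -0.53, and was no longer past the threshold once that was taken out (-0.13, adjusted p = 0.245).

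The TSC complex, RHEB and the mTOR core changed little. TSC1 fell by 0.23 on the log2 scale (adjusted p = 0.00041 in edgeR). TSC2 had a log2 ratio of -0.12 (adjusted p = 0.0234) with overlapping groups, and the call was lost without control replicate 3 (0.0572), knockdown replicate 1 (0.103) or knockdown replicate 3 (0.0818). TSC2 shares 778 exonic bases with PKD1 on the opposite strand. RHEB, the small GTPase that switches on mTOR complex 1, rose by 0.13 (adjusted p = 0.00151) without overlap. MTOR itself had 105.7 ± 4.34 CPM in control and 113.2 ± 5.20 CPM in knockdown (each ± SD, n = 4; log2 ratio 0.10, adjusted p = 0.0316), in a neighbourhood at 0.09. The call for MTOR was lost without control replicate 1 (0.124) or 3 (0.0707) and without knockdown replicate 2 (0.0509) or 4 (0.154).

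DEPTOR (ENSG00000155792.10), a subunit that inhibits both mTOR complexes, was the mTOR complex gene that changed by over 2-fold. Its levels were 15.7, 17.6, 16.3 and 16.0 CPM in control and 3.40, 3.93, 4.63 and 3.47 CPM in knockdown. The groups were far apart, and knockdown kept 23.5% of the control level (log2 ratio -2.09, SE 0.109, adjusted p = 1.25e-16 in edgeR; neighbourhood value -0.29). MLST8, a subunit of both complexes, rose from 86.6 ± 3.98 to 108.0 ± 4.28 CPM (each ± SD, n = 4; log2 ratio 0.32, adjusted p = 1.54e-07). RPTOR, the scaffold of complex 1, had a log2 ratio of -0.17 (adjusted p = 0.00062), the same as its neighbourhood to 2 decimals (-0.17), and with that taken out it was 0.01. MAPKAP1, the complex 2 subunit SIN1, had one of -0.39 (adjusted p = 3.37e-10), with a neighbourhood value of -0.36 and no call once it was taken out (adjusted p = 0.413). RICTOR, the scaffold of complex 2, had one of 0.26 (adjusted p = 0.0306) beside a neighbourhood value of 0.41, and turned to -0.15 with that removed. Its call was lost without control replicate 4 (0.0552), knockdown replicate 2 (0.0786) or knockdown replicate 3 (0.0787).

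Sestrins are stress-induced proteins that hold back mTOR complex 1. SESN3 (ENSG00000149212.12, chromosome 11, 95165513 to 95232541, minus strand), a FOXO target gene in other cells, had 4, 10, 8 and 9 counts in control (0.183, 0.454, 0.380 and 0.388 CPM) and 935, 1012, 815 and 824 counts in knockdown (39.7, 41.5, 41.5 and 38.1 CPM). Nearly silent in every control library, it was raised to a similar level in all knockdown libraries (log2 ratio 6.81, SE 0.271, adjusted p = 1.89e-25 in edgeR). The ratio of the group means was 114.5, and leaving out single libraries kept the log2 ratio between 6.60 and 6.96. An antisense gene, LNCRNA-IUR, with a mean of 90.62 counts, shares 93 exonic bases with SESN3. SESN1 was not past the threshold, at 9.57 ± 0.110 and 8.79 ± 0.957 CPM (SD, n = 4 each; adjusted p = 0.214; 0.0443 and lower with its neighbourhood value of 0.08 taken out). Per kilobase SESN3 went from 0.0343 ± 0.0114 CPM per kb, far below SESN1 at 2.43 ± 0.0279, to 3.93 ± 0.158, above SESN1 at 2.23 ± 0.243.

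Rag GTPases bring mTOR complex 1 to the lysosome when amino acids are present. RRAGA fell from 46.4 ± 1.91 to 29.3 ± 1.19 CPM (each ± SD, n = 4; log2 ratio -0.66, adjusted p = 6.13e-12 in edgeR), of which its neighbourhood showed -0.43, and stayed lower at -0.23 with that taken out. RRAGC fell by 0.21 on the log2 scale (adjusted p = 0.00062). RRAGD had a log2 ratio of -0.23 that was not past the threshold (adjusted p = 0.0844), though it passed without control replicate 4 (0.0165) or knockdown replicate 3 (0.0412) and, at -0.46, with its neighbourhood value of 0.22 taken out (0.00154).

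Ribosomal S6 kinases fall into the S6Ks, activated by mTOR complex 1, and the RSKs, activated by ERK and PDK1. Of the 5 genes 4 were called lower and 1 higher, by a rule that called 77.1% of all genes tested. RPS6KA2 (RSK3, ENSG00000071242.12, chromosome 6, 166409364 to 166906451, minus strand) had the largest fall of all 48 genes. Its control values were 83.0, 80.2, 85.8 and 80.2 CPM, and its knockdown values 2.76, 3.24, 2.65 and 3.01 CPM. In counts this was 1767 to 1862 against 52 to 79 per library, so that knockdown kept 3.54% of the control level (log2 ratio -4.81, SE 0.0676, adjusted p = 3.42e-27 in edgeR). The neighbourhood value was 0.17, and 64.0% of the 50 nearest genes had a positive log2 ratio. RPS6KA1 (RSK1) fell by 0.53 on the log2 scale (adjusted p = 2.6e-11), from 71.8 ± 2.42 to 49.6 ± 1.47 CPM (SD, n = 4 each). RPS6KA3 (RSK2) went the other way, from 55.9 ± 2.71 to 87.1 ± 3.32 CPM (log2 ratio 0.64, adjusted p = 1.26e-12), and remained higher at 0.35 with its neighbourhood value of 0.29 taken out. Per kilobase, the share of RPS6KA2 in the summed level of the 3 RSK genes went from 32.7% ± 0.654 to 1.87% ± 0.137, and that of RPS6KA3 from 16.2% ± 0.991 to 40.9% ± 1.28. In knockdown RPS6KA1 led RPS6KA3 (13.4 ± 0.397 against 9.58 ± 0.366 CPM per kb), an order that flipped when all GENCODE exons set the length (8.43 ± 0.250 against 8.77 ± 0.335).

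RPS6KB2, the gene of S6K2, fell from 94.9 ± 3.89 to 55.4 ± 2.70 CPM (each ± SD, n = 4; log2 ratio -0.78, adjusted p = 2.24e-14 in edgeR). Its neighbourhood on chromosome 11 was at -0.52, and with that taken out the fall was to -0.26 (adjusted p = 1.09e-05). RPS6KB1, the gene of S6K1, had a log2 ratio of -0.20 (adjusted p = 0.00521), with overlapping groups.

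The 3 translation genes among the 48, EIF4E and its inhibitors EIF4EBP1 and EIF4EBP2, each changed by less than 1.5-fold. EIF4EBP1 rose from 39.2 ± 2.06 to 53.0 ± 1.96 CPM (each ± SD, n = 4; log2 ratio 0.43, adjusted p = 1.09e-08 in edgeR) and was still higher with its neighbourhood value of 0.24 taken out (0.20, adjusted p = 0.00073). EIF4EBP2, a close relative, rose from 365.6 ± 14.9 to 427.8 ± 22.3 CPM (log2 ratio 0.23, adjusted p = 8.72e-06), but its neighbours had a median of 0.48, and with that taken out it was lower (-0.25, adjusted p = 2.23e-06). EIF4E, the cap-binding protein, had 166.2 CPM in control replicate 3 and 192.9 to 194.3 CPM in the other controls, against 140.9 to 157.4 CPM in knockdown (log2 ratio -0.32, adjusted p = 3.84e-05).

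**Figure D3:**
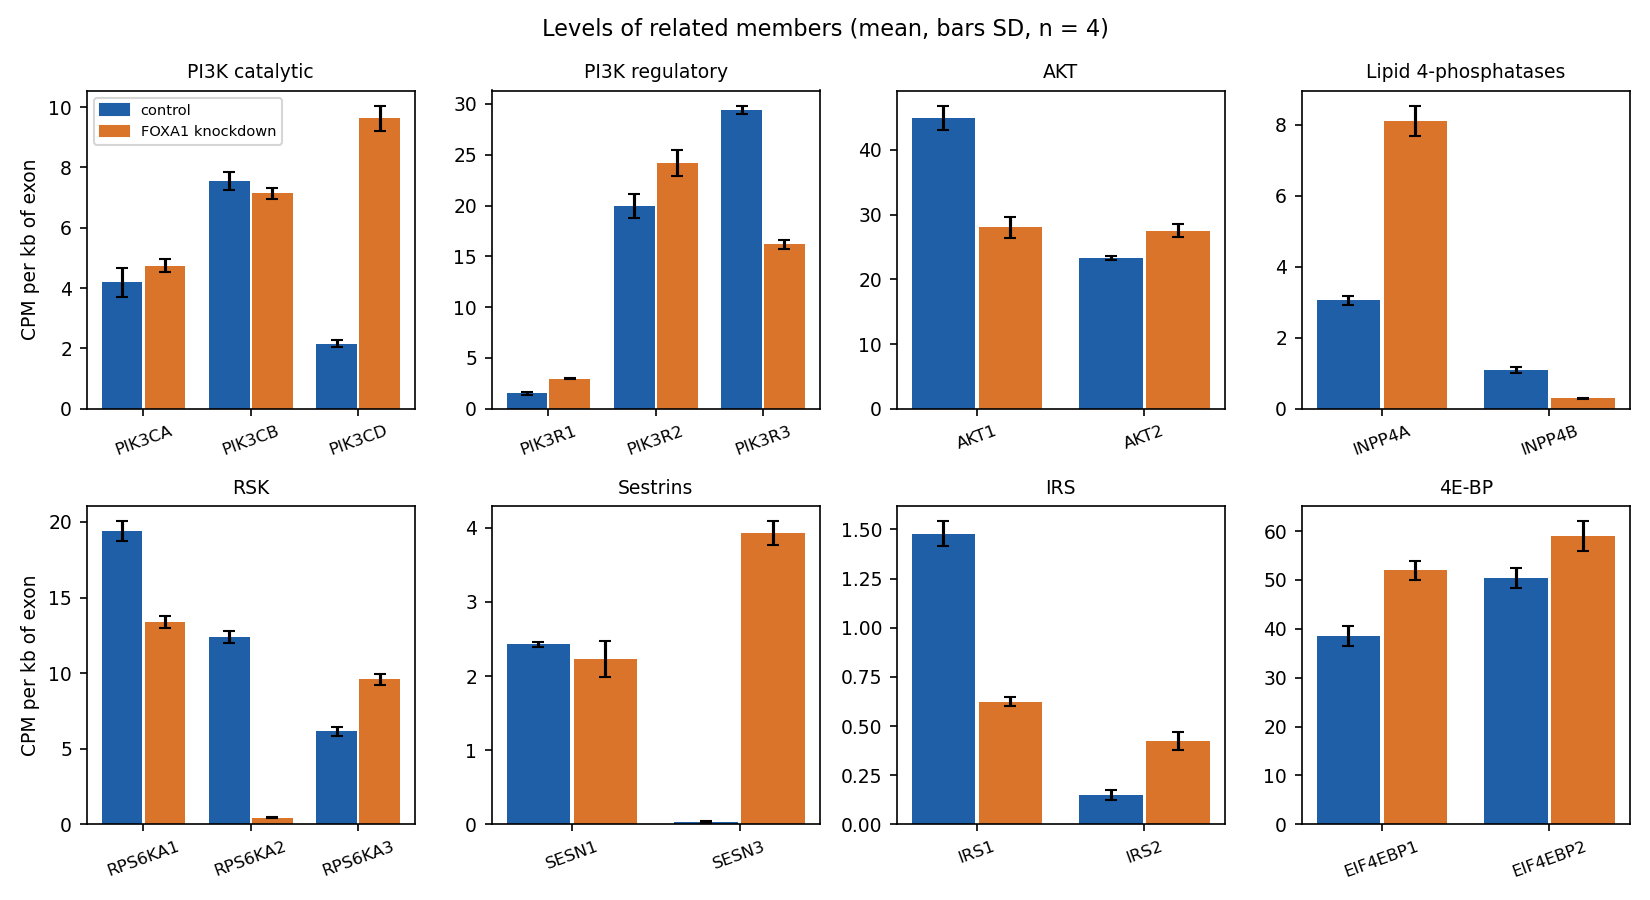
Level of related genes in CPM per kilobase of merged exon (bars are means, error bars SD, n = 4) in control (blue) and knockdown (orange), each panel with its own axis from 0. PIK3CD passes PIK3CB, PIK3R2 passes PIK3R3, SESN3 passes SESN1 and RPS6KA2 drops from 12.4 to 0.439 CPM per kb.

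Genes of the pathway outside the 48 were read from 8 lists of 84 genes, of which 83 were in the table and 80 were tested. The test called 35 higher and 34 lower (86.2%, against 77.1% of all genes), and 14 changed by at least 2-fold (17.5%, against 28.3%). Their median log2 ratio was 0.0078. The list of other PI3K subunits, receptors and adaptors, which also holds SGK2, had 7 of these 14: of its 11 tested genes 8 were called higher and 3 lower. PIK3AP1, an adaptor that links B cell receptors to PI3K, went from 3 to 10 counts in control libraries to 678 to 839 in knockdown (log2 ratio 6.94, adjusted p = 1.63e-24 in edgeR). GRB10, an adaptor that restrains insulin signalling and is stabilised by mTOR complex 1, rose from 32.5 ± 0.677 to 255.9 ± 7.94 CPM (each ± SD, n = 4; log2 ratio 2.98, adjusted p = 1.67e-27). GAB2, a docking protein for PI3K, rose from 5.36 ± 0.322 to 30.1 ± 1.69 CPM, and PIK3R5, a regulatory subunit of class IB PI3K, from at most 5 counts in a control library to between 16 and 33 in knockdown. The 2 receptors that use IRS proteins diverged: INSR rose from 10.3 ± 1.08 to 28.2 ± 2.86 CPM (log2 ratio 1.46, adjusted p = 2.62e-13), and IGF1R fell from 24.3 ± 0.923 to 4.65 ± 0.854 CPM (log2 ratio -2.38, adjusted p = 3.29e-18). SGK2 fell by 2.41 on the log2 scale.

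Other inositol lipid phosphatases were called in all 11 cases, 4 higher and 7 lower. The same rule called 77.1% of all genes tested, the background for this list and those that follow. INPP5J, a 5-phosphatase, fell from 50.1 ± 3.16 to 7.51 ± 0.548 CPM (each ± SD, n = 4, log2 ratio -2.74, adjusted p = 2.52e-22 in edgeR). In the list of AMPK subunits and stress inputs, 2 of 10 were higher and 6 lower. DDIT4 (REDD1), which holds mTOR complex 1 back under stress through the TSC complex, had 180.0 to 190.2 CPM in the control libraries and 11.3 to 11.6 CPM in the knockdown libraries (log2 ratio -4.01, SE 0.0193, adjusted p = 5.33e-29); an antisense gene with a mean of 89.75 counts covers 41.2% of its exonic bases. PRKAA2, an AMPK catalytic subunit, fell from 14 to 25 counts per library to 3 to 10 (log2 ratio -1.62). Regulators of the Rag GTPases moved both ways: of 19 genes in the list of GATOR, KICSTOR and folliculin, 10 were higher and 5 lower, and of 5 Ragulator genes 2 were higher and 2 lower. None reached 2-fold, though MIOS, a GATOR subunit, came close, from 82.1 ± 3.36 to 41.5 ± 0.327 CPM (log2 ratio -0.98, adjusted p = 9.87e-17 in edgeR), and LAMTOR3 of Ragulator had a log2 ratio of -0.79 (adjusted p = 6.65e-13); both were named after their values were seen. Of 5 tested genes in the list of other mTOR complex and assembly factors 3 were higher.

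FOXO factors, which AKT excludes from the nucleus, did not move together. FOXO1 was called higher at a log2 ratio of 0.22 with overlapping groups, and FOXO6, at -0.07, was not past the threshold. FOXO4 rose from 2.71 ± 0.461 to 44.4 ± 1.03 CPM and FOXO3 fell from 46.7 ± 1.92 to 19.5 ± 0.794 CPM (each ± SD, n = 4; log2 ratios 4.04 and -1.26, adjusted p = 3.92e-24 and 2.34e-17 in edgeR). In their list, which also holds autophagy and lysosome factors, 3 of 10 were higher and 6 lower. That is 90.0% called, against 77.1% of all genes tested. TFEB, a lysosomal transcription factor that mTOR complex 1 restrains, had a log2 ratio of -1.52. Among 9 translation factors and targets 3 were higher and 5 lower, and EIF4EBP3, a further eIF4E inhibitor, had a log2 ratio of -1.19 (adjusted p = 3.13e-08), but it shares 73.4% of its exonic bases with the readthrough gene ANKHD1-EIF4EBP3, so its assignment is uncertain.

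**Figure D4:**
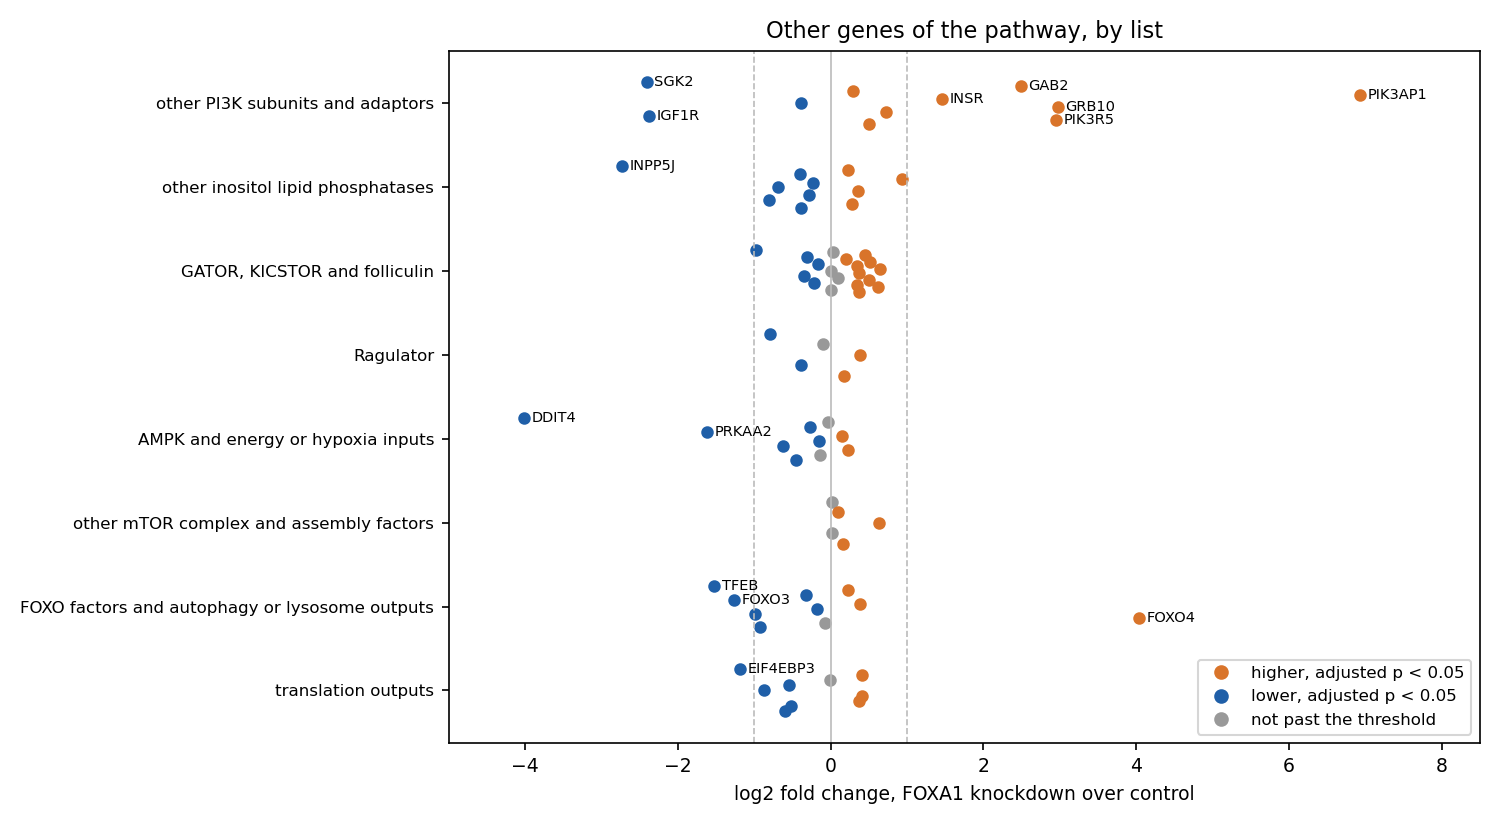
Log2 ratio (x axis, knockdown over control) of the 80 tested pathway genes outside the 48, by list; orange was called higher, blue lower and grey was not past the threshold. Dashed lines mark 2-fold, and the 14 genes beyond them that were called are named, from DDIT4 at -4.01 to PIK3AP1 at 6.94.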

How the data were processed

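RNA was sequenced from 4 control and 4 FOXA1-knockdown SKBR3 libraries. The authors deposited a table of whole-number counts per gene, with no normalization; per the submitters' processing notes Salmon 1.9 and hg38 were used, and the annotation, strand setting and rounding are not given in the sources used here. Genes were matched by identifier to GENCODE 29 (GRCh38) for 29358 of 30434 rows. Counts were filtered with edgeR 4.0.16 (filterByExpr, at least 10 counts in 4 libraries and 15 in all), which kept 16430 genes, scaled by TMM and fitted with the robust quasi-likelihood test on group alone, Benjamini-Hochberg adjusted over all genes, on a script tested on simulated data. The biological coefficient of variation was 4.56%, and 3 counts, the limit that a count of 0 allows, equal 0.123 to 0.153 CPM (counting error only). SE is the standard error of the group difference in log2 CPM. Values in each library are given for members called with at least a 2-fold change, a mean of 50 counts or more and no overlap, and other pathway genes are named where called with a 2-fold change. The members and lists were chosen with earlier results of these data known. Of the 4 motif spellings only TGTTTAC was set at the start. DESeq2 1.42.0, limma 3.58.1 (voom), other scalings and filters, a 2-fold test, removal of the neighbourhood shift, a replicate block and leaving out each library were the alternatives.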

Additional observations from a re-analysis of the deposited data

Results flagged for a closer look

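In 6 of 98 groups of 4 libraries (each member and FOXA1, in control and in knockdown), 1 library lay apart from the other 3 by Dixon's criterion, which chance alone gives in about 4.9. Among the controls, replicate 3 was the library apart for AKT1 (219.1 CPM, the others 200.9 to 203.6), RPS6KB1 (24.98 CPM, the others 29.4 to 30.0) and EIF4E (166.2 CPM, the others 192.9 to 194.3). Control replicate 2 was low for IRS1, at 13.44 CPM against 14.5 to 14.7. In knockdown, replicate 1 was low for PIK3R3, at 91.98 CPM against 97.5 to 97.7, and replicate 3 was low for AKT1S1, at 116.2 CPM against 121.5 to 122.0. No reason for these values was tested. Without control replicate 3, PIK3CA, TSC2 and MTOR were no longer past the threshold and PHLPP1 was, and 17 members were higher and 23 lower.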

How the results depend on the processing

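Among 19 alternatives, 11 members kept their direction and their side of the threshold in all. DESeq2, limma voom, RLE scaling and the replicate block changed no member's call or direction. With the replicate block 12453 genes were called, with 18 members higher and 24 lower. Same-numbered libraries had correlations of -0.0355 to 0.168, beside -0.119 to 0.0740 for libraries with different numbers. These small values do not settle whether the numbers pair libraries. Leaving out each library gave 15 to 18 members higher and 22 to 24 lower, 11 or 12 with a 2-fold change and a median log2 fold change of -0.15 to -0.09, beside 12498 to 12865 genes in all. The test against a 2-fold change called 3863 genes, with 5 members higher and 6 lower, since it asks for more than a difference from 0. Under upper-quartile scaling the members' median was -0.0591 and under scaling by library size only it was -0.0344, while the median of all genes moved from 0.02 to 0.08 and 0.10; 12 members then passed 2-fold. Library size alone also turned PIK3CB to 0.00407 and left 20 members higher and 19 lower. With the neighbourhood shift removed, 10 members changed sign: PIK3C2A to 0.14, PIK3R2 to -0.0264, AKT2 to -0.12, PHLPP1 to -0.10, PHLPP2 to -0.0879, GSK3B to -0.23, AKT1S1 to -0.24, RPTOR to 0.00813, RICTOR to -0.15 and EIF4EBP2 to -0.25; the cause was not tested. For IRS2, SGK1 and SESN3 the low control counts limit the precision of the fold change.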
